A study of Mus musculus with 24 samples.

Results

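The genes described here are Ifitm1, Ifitm2, Ifitm3 and Ifitm6, 4 of the 23420 gene symbols counted in each library, taken by name as the members of the interferon-induced transmembrane (IFITM) family that lie side by side on mouse chromosome 7 and were read in these cells. The set was selected on the normalised counts of Ifitm1, which had been noted as far higher in macrophages without TET enzymes, so the values of Ifitm1 in every contrast that holds those cells, or the WT libraries they were compared with, are given as a description, without a test. The data were RNA-seq counts from 24 libraries of mouse cells in 10 groups. Bone marrow-derived macrophages (BMDMs) made up 16 libraries, 2 in each of 8 groups, and Th2 cells, the helper T cells that make IL-4, made up 8 libraries, 4 in each of 2 groups.

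TET iTKO macrophages came from mice in which Tet1, Tet2 and Tet3 were all floxed (fl/fl), with CreERT2 and a Rosa26-YFP reporter, and TDG iKO cells from Tdg fl/fl mice with CreERT2 and a Rosa26-H2B-EGFP/GPI-mCherry reporter. TET enzymes oxidise 5-methylcytosine in DNA, and TDG is the glycosylase that removes the most oxidised forms. CreERT2 is a Cre recombinase that becomes active once tamoxifen is given; mice with Cre and their controls, labelled WT, all received tamoxifen and were adult mice of the C57BL/6 strain. Each knockout had its own WT libraries, called the Tet cohort and the Tdg cohort. BMDMs were grown in L929-cell conditioned medium with M-CSF and were collected without stimulation (0 h) or 6 h after Kdo2-lipid A (KLA), a Toll-like receptor 4 agonist. Th2 cells were made from naive CD4+ T cells with antibodies to CD3 and CD28, IL-4 and anti-IFN-γ, then grown in IL-2; they were WT or TDG iKO, and no KLA was given. Nothing in the labels says whether replicates of a group were separate animals, so p-values measure the spread between these samples, which may be technical.

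IFITM proteins are small proteins of the plasma membrane and endosomes that hinder the fusion of enveloped viruses with cell membranes. Interferons raise their transcription through ISGF3, which binds the interferon-stimulated response element (ISRE) in promoters. IFITM3, in late endosomes, restricts influenza virus; IFITM1 is found more at the cell surface; IFITM2 is a close relative of both, and the role of Ifitm6 is less well known.

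In the build to which the authors aligned, mm9, Ifitm2 lies at chr7:148140736-148141882 (minus strand), Ifitm1 at chr7:148153120-148155724 (plus strand), Ifitm3 at chr7:148195485-148196669 (minus strand) and Ifitm6 at chr7:148201711-148202791 (minus strand). No other annotated gene overlaps any of them. The 4 promoter windows below, each 300 bases across the RefSeq transcription start (build GRCm38.p6, matched by symbol for 4 of 4 genes), are shown because the genes are neighbours with unlike values. Capitals mark the core of the ISRE, written here as GAAA, any 2 bases and GAAA, searched on both strands.
Ifitm1 promoter, chr7:140967826-140968125, plus strand: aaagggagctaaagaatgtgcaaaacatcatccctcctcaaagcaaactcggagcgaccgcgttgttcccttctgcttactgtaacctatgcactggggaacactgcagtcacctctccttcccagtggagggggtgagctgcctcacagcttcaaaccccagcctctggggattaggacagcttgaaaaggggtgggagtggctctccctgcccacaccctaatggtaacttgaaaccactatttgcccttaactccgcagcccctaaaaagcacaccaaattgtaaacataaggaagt
Ifitm2 promoter, chr7:140955912-140956211, minus strand: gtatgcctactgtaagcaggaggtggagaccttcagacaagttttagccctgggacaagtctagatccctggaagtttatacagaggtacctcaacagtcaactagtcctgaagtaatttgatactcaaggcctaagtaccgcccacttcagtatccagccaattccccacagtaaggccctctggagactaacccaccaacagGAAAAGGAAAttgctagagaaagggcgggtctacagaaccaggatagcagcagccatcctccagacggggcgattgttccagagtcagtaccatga
Ifitm3 promoter, chr7:141010695-141010994, minus strand: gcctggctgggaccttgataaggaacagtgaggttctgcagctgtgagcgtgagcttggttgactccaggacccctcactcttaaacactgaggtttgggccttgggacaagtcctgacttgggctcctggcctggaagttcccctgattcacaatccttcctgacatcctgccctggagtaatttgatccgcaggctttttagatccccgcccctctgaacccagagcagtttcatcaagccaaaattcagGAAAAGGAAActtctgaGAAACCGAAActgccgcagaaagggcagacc
Ifitm6 promoter, chr7:141016843-141017142, minus strand: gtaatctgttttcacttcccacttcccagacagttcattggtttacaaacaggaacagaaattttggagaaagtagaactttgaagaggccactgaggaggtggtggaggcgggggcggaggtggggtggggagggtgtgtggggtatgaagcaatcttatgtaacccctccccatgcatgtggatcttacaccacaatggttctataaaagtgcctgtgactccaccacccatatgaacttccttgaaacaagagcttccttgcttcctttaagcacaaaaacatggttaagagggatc

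The Ifitm3 window held 2 matches to the ISRE core, which began 3 and 20 bases after the start, and the Ifitm2 window held 1, which began 46 bases before it. Neither the Ifitm1 nor the Ifitm6 window held these letters, which were found in 3.49% of the 27025 promoter windows of that length. Judged by its distance from the other windows, the Ifitm1 window lies downstream of the 5' end of Ifitm1 as placed in mm9 above. The bases around that 5' end were not searched. The core of the element bound by STAT dimers, TTC and GAA with any 3 bases between, matched once in Ifitm3, overlapping its second ISRE match, and once in Ifitm6, against 8.47% of all windows. TATAAA matched once in Ifitm6, 46 bases before the start, and once on the opposite strand in Ifitm2 (14.2% of all windows). The NF-kB consensus matched none of the 4 windows and 4.35% of all. CpG dinucleotides, the sites that TET enzymes act on when methylated, numbered 5 in Ifitm1, 4 in Ifitm2, 5 in Ifitm3 and 2 in Ifitm6, beside a median of 7 over all windows. These matches are descriptions of letters in a window, and the files hold no measurement of binding or methylation there.

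The coding sequences of Ifitm1, Ifitm2 and Ifitm3 were 79.6% to 81.5% identical to each other and 66.7% to 69.3% identical to Ifitm6. No exonic window of 50 bases of Ifitm6 was found elsewhere in the mm9 genome, whereas 15.9% of those of Ifitm1, 28.9% of Ifitm2 and 10.2% of Ifitm3 were. The longest copy of Ifitm1 exons lay on chromosome 8, where 339 bases matched at 98.2% identity directly beside 325 bases at 97.8%, without the intron between them. HTSeq-count by default leaves out reads that fit several places, so the levels of Ifitm1, Ifitm2 and Ifitm3 are uncertain to that extent, while each gene is compared with itself across samples.

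Between 4982950 and 26657729 read pairs were assigned to genes in each library (median 14853861), and 32.8% to 51.6% of pairs were unassigned. The 7 macrophage markers summed to 302350 to 412073 normalised counts in BMDM libraries and 116 to 639 in Th2 libraries, where Csf1r and Mertk were at 0. The 7 T cell markers summed to 18957 to 25834 in Th2 and 112 to 374 in BMDM libraries. Counts per gene did not check the deletions: Tdg was read at 0 to 9.22 normalised counts in every library, WT included, and Tet2 and Tet3 were not lower in TET iTKO than in WT libraries of the Tet cohort. Th2 replicates 3 and 4 differed by little more than counting noise (mean chi-square per gene 1.34 in TDG iKO and 1.51 in WT, beside 21.3 to 218 for other Th2 pairs), and were counted as 1 sample in means and SDs. The tests took them as separate samples unless they are said to be summed. Within the Tdg cohort, the 297 genes under 1 kb of exon had a median log2 fold change of -0.66 for TDG iKO over WT at 0 h, beside 0.035 over all, and this class holds Ifitm2, Ifitm3 and Ifitm6. The 2 WT libraries of that cohort at 0 h stood apart from each other: no gene was called for TDG at 0 h with both, and 1184 without replicate 1.

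Ifitm3 was the main family member in macrophages, Ifitm2 in Th2 cells. Counts were scaled by size factors over all 24 libraries (normalised counts) and divided by exon length for comparison between genes. Ifitm3 took 83.9% to 91.8% of the summed level per kb of the 4 genes in the 16 BMDM libraries (median 88.6%), with medians of 10.1% for Ifitm2, 0.899% for Ifitm6 and 0.0565% for Ifitm1. In the 8 Th2 libraries Ifitm2 took a median of 54.96%, Ifitm3 39.4%, Ifitm6 2.77% and Ifitm1 2.50%. The order Ifitm3, Ifitm2, Ifitm6, Ifitm1 held for group means per kb in 8 of 10 groups, the 8 of BMDMs.

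**Figure D1:**
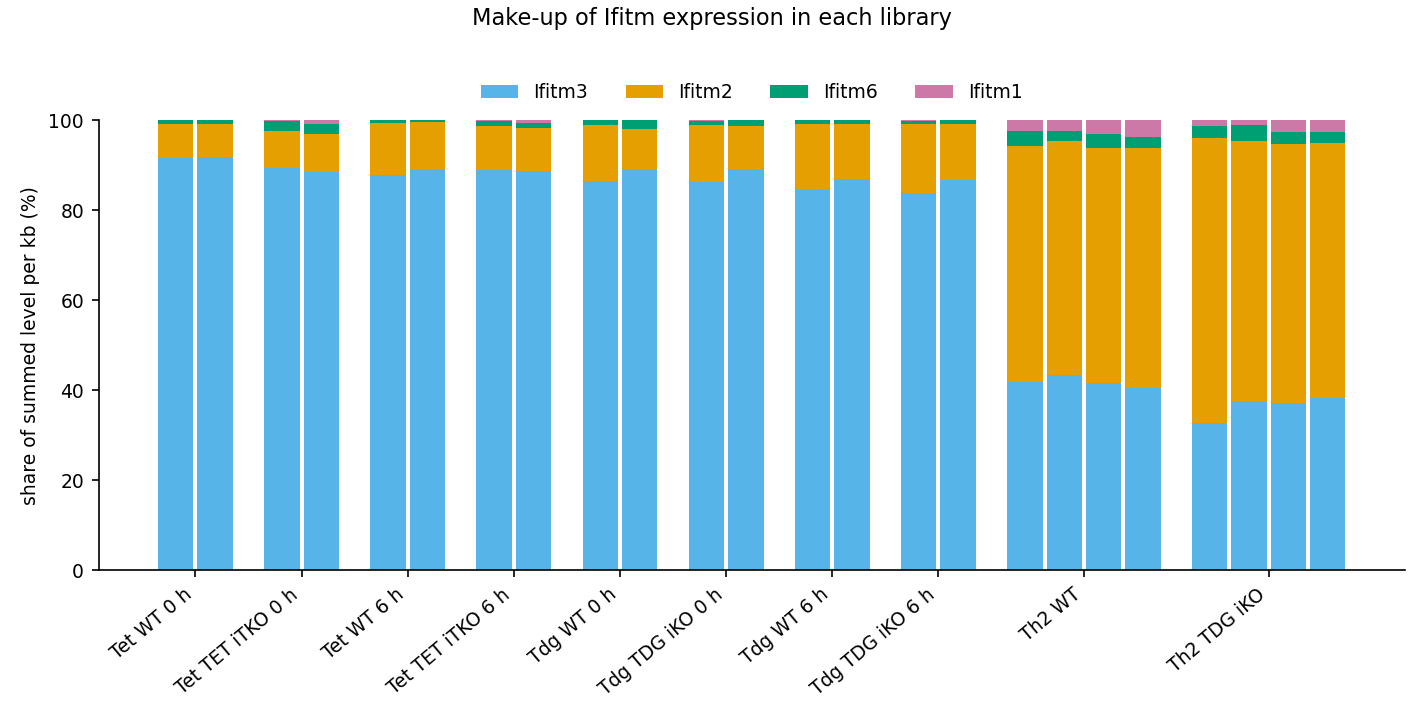
Share of each Ifitm gene (%) in the summed normalised count per kb of exon of the 4 genes, 1 bar per library, by group. Ifitm3 fills 83.9% to 91.8% of the bars of macrophages, and Ifitm2 at least 51.9% of those of Th2 cells.

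WT Th2 cells and unstimulated WT macrophages differed in all 4 genes, and Ifitm1 ran against the others. Ifitm1 stood at 66.6 ± 5.60 normalised counts per kb in WT Th2 cells (SD, n = 3), against 17.7 ± 1.45 and 4.18 ± 3.38 in WT BMDMs at 0 h of the Tdg and Tet cohorts (SD, n = 2 each). With the BMDM libraries of the Tdg cohort alone, which played no part in the choice of Ifitm1, its log2 fold change, Th2 over BMDM, was 1.9 (SE 0.49, adjusted p = 0.000362), in a fit that called 6835 of 13137 genes. Here and in what follows, adjusted p is from DESeq2 with Benjamini-Hochberg adjustment over all genes tested, and a gene is called where it is under 0.05, unless edgeR is named. Ifitm3 was at 1048 ± 139 per kb in WT Th2 cells and at 38778 ± 14547 and 25867 ± 1925 in the same BMDM groups, a log2 fold change of -5.01 (SE 0.27, adjusted p = 1.25e-75). Ifitm2 was lower in Th2 cells by a log2 fold change of -1.39 (SE 0.33, adjusted p = 5.45e-05) and Ifitm6 by -2.76 (SE 0.51, adjusted p = 3.04e-07). All 3 were lower with no overlap between the 4 Th2 and the 4 BMDM libraries, where 56.5% of genes did not overlap in either direction. In this comparison of unlike cells 60.4% of 13947 genes were called, as were all 3. The p-values of this paragraph count Th2 replicates 3 and 4 as separate samples and may be too small. With that pair summed, 7608 of 14175 genes were called. All 26 interferon-induced genes of a list were lower in Th2 cells (median log2 fold change -4.96). The cell types were also grown and sampled apart, and cell type and preparation cannot be told apart.

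**Figure D2:**
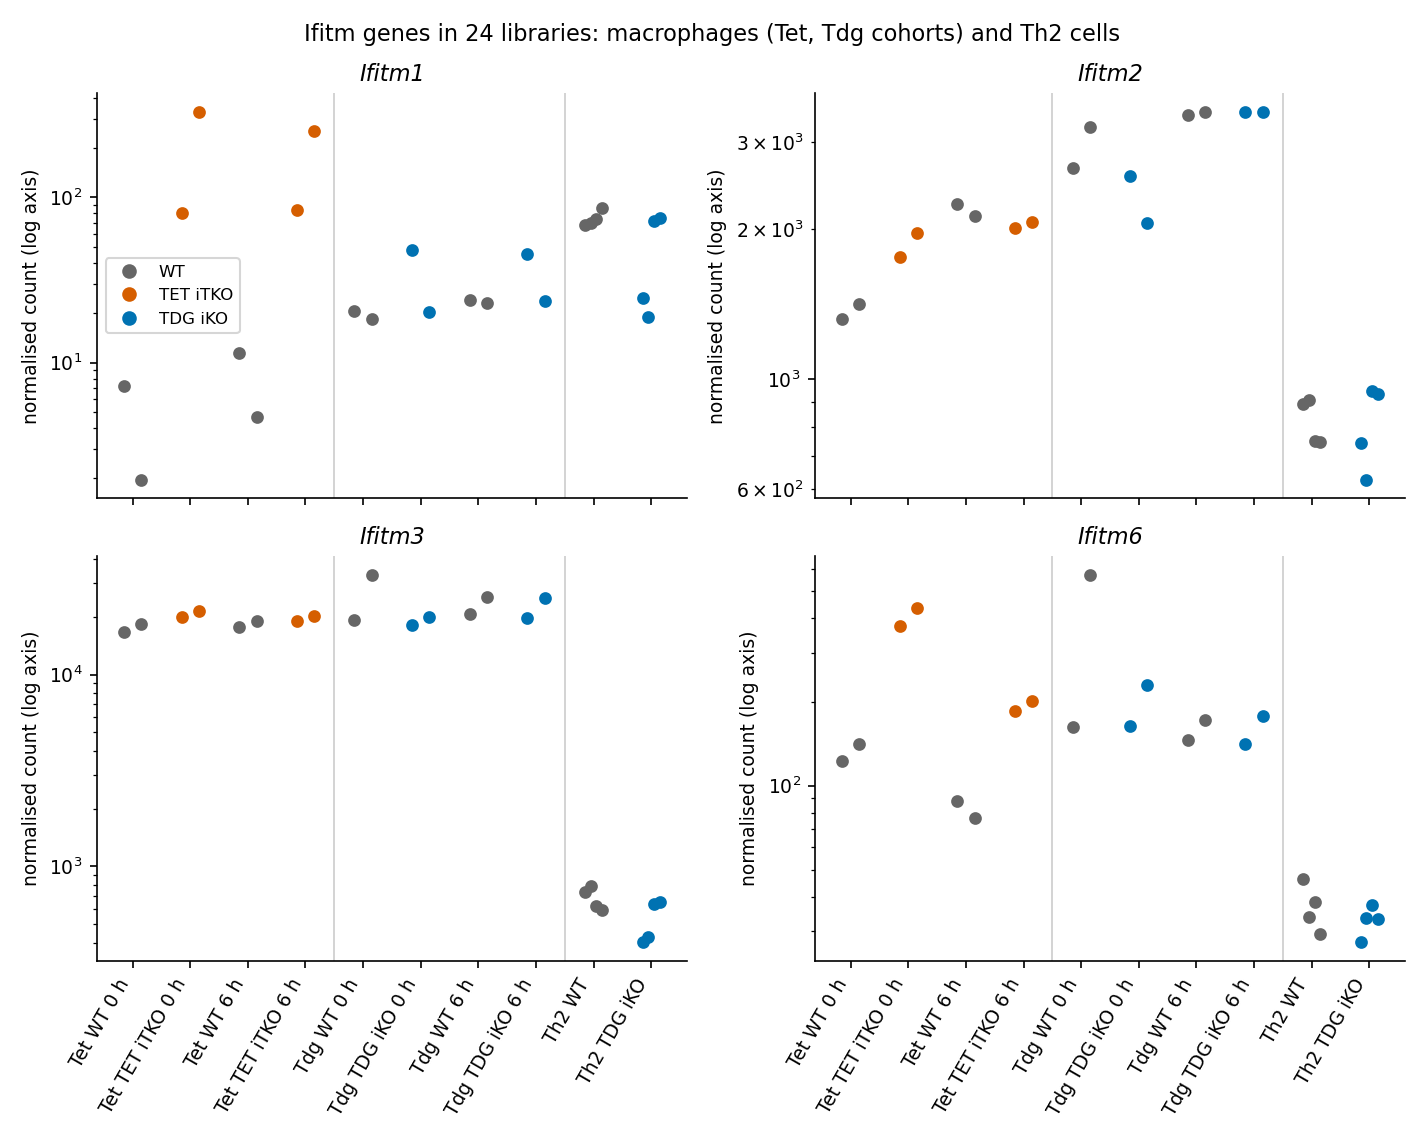
Normalised count (log axis) of each gene in each of 24 libraries, by group; each point is 1 library, grey for WT, orange for TET iTKO and blue for TDG iKO. The 4 TET iTKO libraries hold 81.0 to 330 normalised counts of Ifitm1, beside 1.95 to 11.4 in the WT libraries of that cohort.

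Loss of TET enzymes was compared with WT in unstimulated macrophages. Ifitm1 was read 8 and 3 times in the 2 WT libraries and 79 and 429 times in the 2 TET iTKO libraries, or 7.18 and 1.95 against 81.0 and 330 normalised counts. Both TET iTKO libraries were above both WT libraries, and the TET iTKO libraries differed 4.07-fold from each other. The ratio of summed normalised counts was 53.8, with a 95% interval of 29.8 to 108 that covers counting error only.

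Ifitm6, the neighbour with the next largest difference, had 123 and 142 normalised counts in WT and 374 and 433 in TET iTKO libraries. The TET iTKO libraries lay close together and clear of WT, with a log2 fold change of 1.61 (SE 0.22, adjusted p = 4.34e-11), or 3.05-fold. Ifitm2 had 1318 and 1413 in WT and 1757 and 1971 in TET iTKO libraries, a log2 fold change of 0.45 (SE 0.11, adjusted p = 0.00237). Ifitm3, the most abundant, had 16615 and 18461 in WT and 19984 and 21495 in TET iTKO libraries. Its log2 fold change of 0.24 (SE 0.10) did not pass the test (adjusted p = 0.139; 95% interval 0.05 to 0.44). Of the 3 tested genes 2 were therefore called, where 7.56% of 12114 genes were called. All 3 were higher with no overlap between groups, as were 27.2% of genes. Ifitm2 lost its call without WT replicate 1 (log2 fold change 0.40, adjusted p = 0.162) or without TET iTKO replicate 2 (0.37, adjusted p = 0.268), while Ifitm6 kept its call without any 1 library (1.5 to 1.71).

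After 6 h of KLA the same contrast gave 13 and 5 reads of Ifitm1 in WT and 89 and 342 in TET iTKO libraries, or 11.4 and 4.65 against 83.7 and 254 normalised counts. The groups were again apart, with a ratio of summed normalised counts of 22.1 (95% counting interval 13.8 to 37.6). Ifitm6 had 88.3 and 76.3 normalised counts in WT and 185 and 201 in TET iTKO libraries. It was higher by a log2 fold change of 1.22 (SE 0.24, adjusted p = 1.71e-05), and it kept its call without any 1 library (1.13 to 1.33). Ifitm2 (log2 fold change -0.11, 95% interval -0.33 to 0.12, adjusted p = 0.771) and Ifitm3 (0.10, -0.10 to 0.29, adjusted p = 0.759) did not pass the test. That is 1 call among 3 tested genes, where 6.45% of 11823 genes were called. The groups did not overlap for any of these 3 genes, with Ifitm2 lower and the other two higher in TET iTKO, and 47.4% of genes did not overlap in either direction.

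Genes of the wider interferon programme mostly lay higher in TET iTKO macrophages at 0 h, though few were called. Of 26 interferon-induced genes, all tested, 23 were higher with no overlap between groups, beside the 27.2% of all genes given above. Of these 26, 8 had an unadjusted p under 0.05 in DESeq2, and 1 rose past the adjusted threshold by DESeq2 and by edgeR. It was Gbp2, a guanylate-binding GTPase, with a log2 fold change of 1.21 (SE 0.40, adjusted p = 0.0383). The median of the list was 0.48, beside 0.01 over all genes tested. At 6 h none of the 26 was called by DESeq2 or edgeR and none had an unadjusted p under 0.05, the groups overlapped for all 26, and the median was -0.13. The most abundant of them there, Ifit2, had a log2 fold change of -0.57 (SE 0.55, adjusted p = 0.729), and Irf7, a transcription factor that amplifies the interferon response, 0.05 (SE 0.16, adjusted p = 0.95). Of 12 genes of interferon signalling, 1 was higher at each time, the receptor-associated kinase Jak2, by a log2 fold change of 0.60 (SE 0.14, adjusted p = 0.000645) at 0 h and 0.42 (SE 0.14, adjusted p = 0.0366) at 6 h, where edgeR called none of the 12. The other neighbours on chromosome 7 were 14 genes, of which 8 could be tested at 0 h. The call among them was Rnh1, the ribonuclease inhibitor, which was lower in TET iTKO macrophages at 0 h (log2 fold change -0.40, SE 0.11, adjusted p = 0.00624) and at 6 h (-0.37, SE 0.11, adjusted p = 0.0188), where edgeR called none of the neighbours. Ifitm5, known from bone, Ifitm7 and Ifitm10 had at most 11, 14 and 5 reads in any library.

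Summed levels of B cell, myeloid progenitor and neutrophil, monocyte and dendritic cell markers were also higher in TET iTKO macrophages at 0 h. Those of the T cell markers were not, at 234.7 and 271.2 normalised counts against 238 and 373.9 in WT libraries. The 4 B cell markers summed to 25.1 and 20.8 normalised counts in the 2 WT libraries at 0 h and to 73.8 and 291 in the TET iTKO libraries, and at 6 h to 25.3 and 36.3 against 54.6 and 273. Replicate 2 of TET iTKO was thus the higher of the pair at both times for B cell markers and for Ifitm1. The same replicate was the higher at both times for Ifitm2, Ifitm3 and Ifitm6, by 1.03-fold to 1.16-fold. It was also the higher at both times for the sums of progenitor and neutrophil markers and of monocyte markers. It was not so at both times for dendritic cell, T cell or macrophage markers. At 0 h 3 of the 4 B cell markers were called higher, Cd79b with a log2 fold change of 4.03 (SE 0.87, adjusted p = 0.00017), and edgeR called 2. At 6 h 1 was called, and 0 by edgeR, with an unadjusted p under 0.05 for all 4 in DESeq2. No B cell marker was at 0 in any group. In the Tdg cohort the B cell markers summed to 12.4 to 94.5 normalised counts, and the highest Ifitm1 values there (48.1 and 45.6) were in TDG iKO replicate 1, which also had the highest B cell marker sums at 0 h (74.0) and 6 h (94.5). That replicate also had the cohort's highest sums of progenitor and neutrophil markers (8855 and 9387) and of dendritic cell markers (72.7 and 58.6). At 0 h it did not have the highest sums of monocyte, T cell or macrophage markers. At 6 h it had the highest monocyte marker sum, 4925 beside 3744 to 4714 in the cohort's other libraries. Its T cell and macrophage marker sums were not the highest at 6 h. Among 12 myeloid progenitor and neutrophil markers, 4 were higher in TET iTKO macrophages at 0 h and 5 at 6 h, with sums of 2555 and 3974 against 1559 and 2220 at 0 h. Their sums overlapped at 6 h, at 4208.5 and 5029 in TET iTKO against 3850 and 4361 in WT libraries. Monocyte marker sums overlapped at 6 h too, at 2484 and 3296 against 2252 and 2534. Of 4 monocyte markers, 3 were higher and Ly6c2 was lower at both times, and Cx3cr1, the fractalkine receptor, had a log2 fold change of 4.45 (SE 0.54, adjusted p = 5.08e-14) at 0 h. The 4 dendritic cell markers summed to 13.1 and 15.4 normalised counts in TET iTKO and to 0.650 and 2.69 in WT libraries at 0 h. Of these 4, 2 could be tested at 0 h and 1 at 6 h, and none was called by DESeq2 or edgeR, with 1 unadjusted p under 0.05 at each time. The macrophage markers summed to 302350 and 303101 in TET iTKO and to 355653 and 369501 in WT libraries at 0 h. Singly these 7 markers were split, with 2 called higher and 3 lower at 0 h, and 0 higher and 3 lower at 6 h. Their median log2 fold change was 0.18 at 0 h and 0.09 at 6 h. The part of these cells in the Ifitm values was not tested, and in bulk samples fewer cells of a type and less RNA per cell cannot be told apart.

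**Figure D3:**
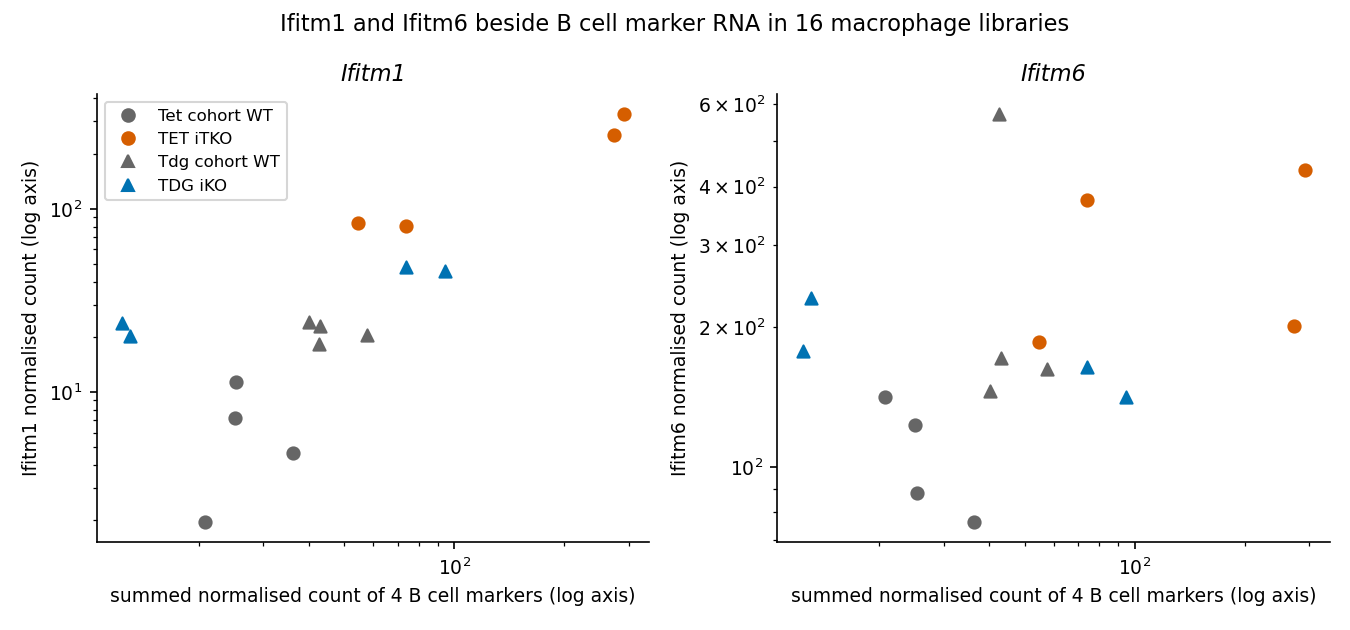
Normalised counts of Ifitm1 (left) and Ifitm6 (right) against the summed normalised counts of 4 B cell markers, both on log axes, in 16 macrophage libraries; circles are the Tet cohort and triangles the Tdg cohort. TET iTKO replicate 2 has the highest marker sums (291 and 273) and the highest Ifitm1 counts (330 and 254), and the highest Ifitm6 count (573) is in Tdg cohort WT replicate 2 at 0 h, whose marker sum is 42.6.

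KLA was compared with no stimulation within each genotype; comparisons of a cohort share libraries with each other and with those above. In Tet cohort WT macrophages Ifitm2 rose from 1318 and 1413 normalised counts to 2248 and 2133, a log2 fold change of 0.69 (SE 0.11, adjusted p = 1.95e-08), or 1.61-fold. Ifitm6 fell there from 123 and 142 to 88.3 and 76.3, with a log2 fold change of -0.68 (SE 0.24, adjusted p = 0.0213). The Ifitm6 call was lost without each of the 4 libraries in turn (adjusted p 0.0537 to 0.256) and when these 4 libraries were fitted alone (adjusted p = 0.125). Ifitm3 moved by 0.07 (95% interval -0.12 to 0.27, adjusted p = 0.703). Ifitm1 went from 7.18 and 1.95 to 11.4 and 4.65 normalised counts, so the groups overlap. The 2 calls among 3 tested genes stand beside 23.6% of 12114 genes.

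In TET iTKO macrophages Ifitm6 fell with KLA from 374 and 433 normalised counts to 185 and 201, a log2 fold change of -1.06 (SE 0.22, adjusted p = 7.67e-06), and it kept its call without any 1 library. Ifitm2 went from 1757 and 1971 to 2014 and 2073, a log2 fold change of 0.13 (95% interval -0.09 to 0.36, adjusted p = 0.464), and Ifitm3 by -0.07 (adjusted p = 0.697). Ifitm1 went from 81.0 and 330 to 83.7 and 254 normalised counts, so the groups overlap. Of the 3 tested genes 1 was called, beside 24.7% of 11240 genes.

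The difference in the KLA response between TET iTKO and WT was then tested itself. For Ifitm2 it was -0.56 (SE 0.16), with an unadjusted p of 0.00054 from DESeq2 and an adjusted p of 0.0962, which did not pass the correction, and edgeR gave an adjusted p of 0.299. A fit with replicate nested in genotype, which pairs the 0 h and 6 h libraries of a number, called it (-0.55, adjusted p = 0.0085), with 224 of 8909 genes called in all. The deposited files of the Tet cohort carry in their names 1 number for both times of a replicate, and what that number marks is not stated. Ifitm3 (-0.15, adjusted p = 1) and Ifitm6 (-0.38, adjusted p = 1) did not pass either. Without that pairing none of the 3 tested genes was called by DESeq2 or edgeR, 1 had an unadjusted p under 0.05, and 0.429% of 12114 genes were called. For the interferon-induced list DESeq2 called 16 of 26 genes higher with KLA in Tet cohort WT and 4 of 26 in TET iTKO macrophages. It called none of the list lower. Of all genes, 23.6% and 24.7% were called in these comparisons, in either direction. None of the 26 was called by DESeq2 or edgeR for the difference, and 2 had an unadjusted p under 0.05. Ifit1, which binds viral RNA, rose by 1.69 on the log2 scale in WT macrophages (SE 0.38, adjusted p = 9.8e-05). Cxcl10, a chemokine of the interferon response, rose by a log2 fold change of 4.95 (SE 0.84, adjusted p = 5.15e-08) in WT and of 2.69 (SE 0.84, adjusted p = 0.00762) in TET iTKO macrophages.

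In Tdg cohort WT macrophages none of the 4 genes was called for KLA by DESeq2 or edgeR, 1 had an unadjusted p under 0.05, and 8.73% of 11530 genes were called. Ifitm6 had 163 and 573 normalised counts at 0 h and 146 and 172 at 6 h, so its log2 fold change of -1.20 (SE 0.57, adjusted p = 0.2) rested on an uneven pair. Without the library of 163, WT 0 h replicate 1, it was -1.87, with the library of 573 alone at 0 h. The library of 163 itself lay between the 6 h values of 146 and 172. Genes under 1 kb had a median of -0.57 in this comparison. Ifitm2 had 2665 and 3213 normalised counts at 0 h and 3405 and 3443 at 6 h, a log2 fold change of 0.22 (SE 0.26, adjusted p = 0.69). In TDG iKO macrophages, too, neither tool called any of the 4 genes, 1 had an unadjusted p under 0.05, and 6.95% of 11821 genes were called. Ifitm2 went there from 2566 and 2059 to 3448 and 3451, a log2 fold change of 0.59 (SE 0.26, adjusted p = 0.223). At 6 h the 4 Ifitm2 values of the Tdg cohort lay between 3405 and 3451, while the 0 h values ranged from 2059 to 3213. The difference in KLA response between TDG iKO and WT was called for none of the 4 genes by DESeq2 (adjusted p = 1 for each, no unadjusted p under 0.05) or by edgeR, and for 0% of 15026 genes.

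**Figure D4:**
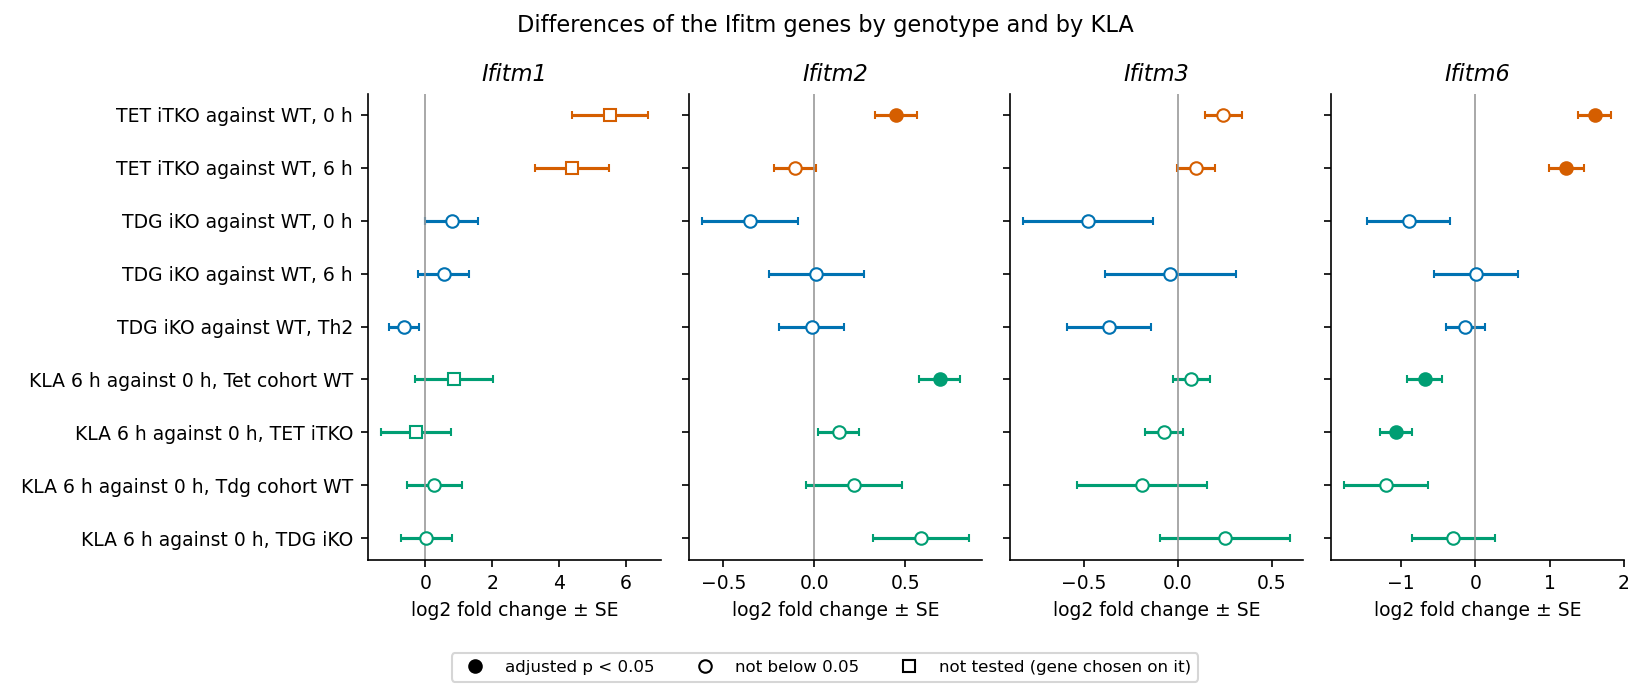
Log2 fold change with its SE for each gene in 9 comparisons of genotype and KLA; each panel has its own scale. Filled circles passed an adjusted p of 0.05, open circles did not, and open squares are Ifitm1 in contrasts that involve its selection. Ifitm6 has filled circles on both TET contrasts (1.61 and 1.22) and on KLA in both genotypes of the Tet cohort (-0.68 and -1.06).

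TDG loss gave no call among the 4 genes. In unstimulated macrophages Ifitm1 had 20.5 and 18.3 normalised counts in WT and 48.1 and 20.2 in TDG iKO libraries, so the groups overlap; its log2 fold change was 0.78 (95% interval -0.78 to 2.35). Ifitm6 had 163 and 573 in WT and 164 and 231 in TDG iKO libraries. The WT library of 573 exceeded both TET iTKO libraries of the other cohort, and it also held the highest Ifitm3 count of the 24, 33266 beside 19318 in WT replicate 1. It had the fewest assigned pairs of the 24 (4982950), with 46.6% unassigned, and its 573 came from 188 reads. The log2 fold change of Ifitm6 was -0.90 (95% interval -2.00 to 0.21); it was 0.30 without that library and -1.56 (adjusted p = 0.00911) without WT replicate 1. Ifitm2 was at -0.35 (95% interval -0.87 to 0.16) and Ifitm3 at -0.48 (-1.16 to 0.20), beside the median of -0.66 for genes under 1 kb; the part of gene length was not tested. DESeq2 adjusted p was 1 for each of the 4, edgeR called none, no unadjusted p was under 0.05, and 0% of 15026 genes were called. At 6 h Ifitm1 had 24.1 and 23.1 in WT and 45.6 and 23.7 in TDG iKO libraries. The log2 fold changes were 0.54 for Ifitm1 (95% interval -0.97 to 2.06), 0.01 for Ifitm2 (-0.50 to 0.53), -0.04 for Ifitm3 (-0.72 to 0.64) and 0.01 for Ifitm6 (-1.10 to 1.124). Adjusted p was again 1 for each, neither tool called any, no unadjusted p was under 0.05, and 0% of 15026 genes were called.

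In Th2 cells Ifitm1 had 68.5, 70.3, 73.8 and 85.9 normalised counts in WT and 24.5, 18.9, 71.5 and 74.8 in TDG iKO libraries. Replicates 1 and 2 of TDG iKO were below all others, and replicates 3 and 4 were within the WT range. The log2 fold change was -0.64 (95% interval -1.52 to 0.25, adjusted p = 1). Ifitm3 followed the same split, with 736, 790, 623 and 590 in WT and 401, 426, 636 and 655 in TDG iKO libraries, and a log2 fold change of -0.36 (95% interval -0.80 to 0.07). With replicates 1 and 2 alone it was -0.90 (adjusted p = 7.55e-05), and with replicates 3 and 4 alone 0.11 (adjusted p = 0.447). Ifitm2 had a log2 fold change of -0.01 (95% interval -0.36 to 0.33), and of 0.34 (adjusted p = 1.86e-05) with replicates 3 and 4 alone, a pair that may be 1 sample each. The fit of replicates 3 and 4 alone called 1957 of 9992 genes, and that of replicates 1 and 2 alone 46 of 9307. Ifitm6 was at -0.13 (95% interval -0.64 to 0.38). None of the 4 was called by DESeq2 or edgeR and no unadjusted p was under 0.05, where 0.0126% of 15889 genes were called. A fit that blocked on replicate number gave 87 calls among 9733 genes, and 15 among 10350 with replicates 3 and 4 summed, none of them an Ifitm gene.

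The TET and TDG effects were compared as a difference of differences over the 16 macrophage libraries. At 0 h the TET effect on Ifitm6 exceeded the TDG effect by 2.51 on the log2 scale (SE 0.63, adjusted p = 0.0286), where 0.34% of 11172 genes were called. That call rests on an uneven WT pair of the Tdg cohort. Without WT 0 h replicate 2 of that cohort the difference was 1.30 (adjusted p = 0.174), and edgeR gave an adjusted p of 0.54. Genes under 1 kb had a median of 0.60 in this difference. For Ifitm2 it was 0.81 (SE 0.22, adjusted p = 0.0617) and for Ifitm3 0.73 (SE 0.36, adjusted p = 0.776). At 6 h none of the 3 tested genes was called by DESeq2 or edgeR and none had an unadjusted p under 0.05, with 0.0888% of 12393 genes called; Ifitm6 was at 1.23 (95% interval -0.04 to 2.49).

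The WT libraries of the cohorts differed as well. Ifitm1 in Tdg cohort WT exceeded that in Tet cohort WT by 4.78-fold at 0 h (95% counting interval 2.22 to 10.9) and by 2.89-fold at 6 h (1.61 to 5.39). Ifitm2 stood at 4514 ± 595 per kb in Tdg cohort WT and 2098 ± 103 in Tet cohort WT at 0 h (SD, n = 2 each). The cohorts differ in floxed genes and in reporter, and these cannot be told apart from the day or batch of culture. Set in order over the 10 groups, Ifitm1 was highest in TET iTKO at 0 h (188 ± 161 per kb) and 6 h (154 ± 110), which overlap each other. WT Th2 cells (66.6 ± 5.60) came next, apart from these only with replicates 3 and 4 averaged. Taken singly, WT Th2 replicate 4 (78.5 per kb) lay above TET iTKO replicate 1 at 0 h (74.0) and 6 h (76.5). TDG iKO Th2 cells (35.5 ± 27.3), TDG iKO BMDMs at 6 h (31.7 ± 14.2) and 0 h (31.2 ± 17.99) followed, each overlapping the next. Tdg cohort WT at 6 h (21.5 ± 0.641) and at 0 h (17.7 ± 1.45) did not overlap, and Tet cohort WT was lowest, apart from both, at 6 h (7.32 ± 4.34) and 0 h (4.18 ± 3.38). Ifitm6 was highest in TET iTKO at 0 h (746 ± 77.3), overlapping Tdg cohort WT at 0 h (680 ± 536). Ifitm3 overlapped between every neighbouring pair of BMDM groups in its order, from 38778 ± 14547 in Tdg cohort WT at 0 h to 25867 ± 1925 in Tet cohort WT at 0 h.

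Among 9526 genes with a mean of at least 50 normalised counts over the 16 BMDM libraries, those whose log2 values were most like Ifitm1 were Cttn, cortactin of the actin cytoskeleton (r = 0.88), Slc7a5, an amino acid transporter (r = 0.88), and Parvg (r = 0.81). Cttn had 293 ± 7.22 normalised counts in TET iTKO and 132 ± 3.10 in Tet cohort WT libraries at 0 h (SD, n = 2 each), and 154 ± 2.90 in Tdg cohort WT. Nearest to Ifitm6 was Il1r1, the interleukin-1 receptor (r = 0.92), with 150.5 ± 22.9 in TET iTKO, 27.96 ± 12.9 in Tet cohort WT and 76.4 ± 42.7 in Tdg cohort WT libraries at 0 h. Selm (r = 0.89) and Yars (r = 0.89) followed. Nearest to Ifitm3 were Irf3, a transcription factor of interferon genes (r = 0.97), Lst1 (r = 0.96) and Milr1 (r = 0.95). Their rank correlations (Spearman) with Ifitm3 were 0.903, 0.924 and 0.9. Each of these genes, and Ifitm3, had its highest BMDM value in Tdg cohort WT at 0 h, an uneven pair. Nearest to Ifitm2 were Klhdc3, Actb, which encodes cytoskeletal actin, and Arf1 (r = 0.94 for each). Among the members, Ifitm1 and Ifitm6 had r = 0.79 over the 8 Tet cohort and r = -0.52 over the 8 Tdg cohort libraries. These values describe libraries that share cultures, genotypes and batches, and each gene was picked as the highest of many.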

How the data were processed

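The authors sequenced polyadenylated RNA, aligned read pairs to mm9 with HISAT2 and counted pairs per gene with HTSeq-count; tool versions, annotation and strand setting are not given in the sources used here. The deposited values were whole-number counts for 23420 symbols, without normalization; 5 tallies of unassigned pairs were left out.

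Groups came from the labels. DESeq2 1.42.0 (Wald test, adjusted p under 0.05, R 4.3.3) was fitted per cohort over 8 libraries, over 16 for the difference of effects; edgeR 4.0.16 (quasi-likelihood) was an alternative, with TMM factors, a filter of 10 counts in 2 libraries, only the libraries compared, replicate blocks and each library left out. Scripts were tested on simulated data. Levels were per kb of exon of GENCODE vM1 on mm9. The members and lists were chosen with earlier results of these data known. Named genes were the members, examples by mean count among those called or tested in each list, and the 3 genes most like each member.

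Deviations of same-numbered Th2 libraries from their group means correlated at 0.629 to 0.832. Replicates 3 and 4 stood apart from 1 and 2 in both genotypes, and unlike numbers were not correlated. These values therefore cannot show that replicate numbers pair the Th2 samples. BMDM groups have only 2 pairs each.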

Additional observations from a re-analysis of the deposited data

Results flagged for a closer look

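The effect of genotype on Ifitm6 in unstimulated macrophages differed between the TET and the TDG comparison by 2.51 on the log2 scale (SE 0.63, adjusted p = 0.0286 by DESeq2), which was a test of the difference itself. Ifitm6 was higher in 2 of 2 TET iTKO libraries than in either Tet cohort WT library. The TDG comparison holds 1 WT library at 573 normalised counts, above the TDG iKO libraries of 164 and 231, and 1 at 163, below both. Over the libraries left out in turn the difference ranged from 1.30 to 3.17, and it was lowest without that library of 573. Replicate groups were too small to test for single samples that stand apart.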

How the results depend on the processing

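Of 857 values under other settings, 767 kept their direction and their side of the threshold or moved by less than their error. Precision was limited by 2 libraries a group and, for Ifitm1, by as few as 3 reads. The number of Ifitm genes called for TDG in Th2 cells, 0, became 1 with replicates 1 and 2 alone (Ifitm3) and 1 with replicates 3 and 4 alone (Ifitm2), subsets chosen after seeing the data. Those fits called 46 of 9307 and 1957 of 9992 genes, and replicates 3 and 4 may be 1 sample each. With replicates 3 and 4 alone the sign turned for Ifitm2 (0.343), Ifitm3 (0.105) and Ifitm6 (0.0841). KLA in Tet cohort WT gave 1 call in place of 2 with only the 4 libraries compared. TMM factors turned Ifitm1 under KLA in TDG iKO to -0.000745. For the TET effect minus the TDG effect at 0 h, edgeR called 0 genes and a replicate block 2 (Ifitm2 with an adjusted p of 0.0324) in place of 1. A block on replicate nested in genotype gave 1 call for the difference in KLA response between TET iTKO and WT (Ifitm2, -0.55, adjusted p = 0.0085). The labels do not say what a replicate number shares, and each macrophage comparison has only 2 pairs, whereas the names of the Tet cohort's files tie 0 h to 6 h within a replicate. The replicate block changed no other call among the Ifitm genes. The causes were not tested.

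With 1 library left out in turn, the number of Ifitm genes called changed for TET and for TDG at 0 h. It also changed for KLA in both WT groups and for the TET minus TDG effect at 0 h. Such fits left 1 library in a macrophage group, so their calls are not counted here. Without WT 0 h replicate 1 of the Tdg cohort, many more genes were called over all genes as well. Log2 values that turned sign ranged as follows. Under TDG at 0 h Ifitm6 ranged from -1.56 to 0.3. Under TDG at 6 h Ifitm2 ranged from -0.0105 to 0.0362, Ifitm3 from -0.225 to 0.139 and Ifitm6 from -0.169 to 0.169. Under TDG in Th2 cells Ifitm2 ranged from -0.0953 to 0.0868. Under KLA, Ifitm3 ranged from -0.000112 to 0.15 in Tet cohort WT and from -0.544 to 0.276 in Tdg cohort WT, and Ifitm1 from -1.28 to 1.05 in TET iTKO and from -0.498 to 0.769 in TDG iKO. In the difference of KLA responses Ifitm1 ranged from -2.33 to 0.146 for TET and from -0.769 to 0.5 for TDG, where Ifitm3 ranged from -0.0317 to 0.791 and Ifitm6 from -0.287 to 1.57. In the TET minus TDG effect at 6 h Ifitm3 ranged from -0.0337 to 0.345.

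The number of genes called in all moved by over 1.5 times in several comparisons. For TDG it was 0 at 0 h and 4 with a replicate block, and 2 in Th2 cells, 0 by edgeR, 87 with the block, 0 with replicates 3 and 4 summed and 15 with both. For KLA it was 1006 in Tdg cohort WT, 409 by edgeR and 1805 with the block, and 821 in TDG iKO, 344 by edgeR and 1373 with the block. For the difference in KLA response to TET loss it was 52, 4 by edgeR, 90 with the block and 224 with the nested block. For the TET minus TDG effect it was 38 at 0 h, 0 by edgeR and 182 with the block, and 11 at 6 h, 1 by edgeR and 101 with the block. With 1 library left out in turn, the genes called for TET ranged from 280 to 743 at 0 h, in place of 916, and from 262 to 699 at 6 h, in place of 762. At each time the count was lowest without TET iTKO replicate 2. The same ranges were 0 to 1184 for TDG at 0 h, 0 to 5 in Th2 cells, 15 to 154 for the TET and 0 to 241 for the TDG difference in KLA response, and 14 to 2409 at 0 h and 2 to 17 at 6 h for the TET minus TDG effect. Under KLA the lowest and highest were 353 and 2211 in Tdg cohort WT; the lowest were 1872 in Tet cohort WT and 372 in TDG iKO.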
